A study of Rattus norvegicus with 9 samples.

Results

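The chaperones of the endoplasmic reticulum were followed in arteries of adult rat offspring through 10 genes, Hspa5, Hsp90b1, Dnajb9, Dnajc3, Pdia4, Pdia6, Calr, Canx, Sdf2l1 and Herpud1. They were chosen by symbol, and all 10 were found, each on 1 line of the 30452 features counted in every library. The study measured poly(A) RNA of arteries dissected from rats aged 3 to 5 months, whose dams all ate a standard diet in pregnancy. Mesenteric arteries of control offspring, whose dams drank ordinary water, gave 3 libraries (replicates 1, 2 and 3). Mesenteric arteries of high-sucrose offspring, whose dams drank 20% sucrose water, gave 3 (replicates 1, 2 and 3), and pulmonary arteries of control offspring gave 3 (replicates 1, 2 and 4). Libraries are called by these numbers. Strain, sex and whether arteries of several animals were pooled are not stated in the labels. Pulmonary arteries of high-sucrose offspring were not analysed here.

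Proteins that are secreted, or built into membranes, are threaded into the endoplasmic reticulum and folded there. Hspa5 (BiP) and Hsp90b1 (Grp94) are the Hsp70 and Hsp90 chaperones of that compartment, Calr and Canx hold glycoproteins by their sugars, and Pdia4 and Pdia6 rearrange disulfide bonds. Dnajb9, Dnajc3 and Sdf2l1 work with Hspa5, and Herpud1 belongs to the machinery that sends misfolded proteins out for degradation. When unfolded proteins build up, the sensors Atf6, Ern1 and Eif2ak3 start the unfolded protein response, which raises transcription of many of these genes. In arteries, smooth muscle cells and fibroblasts fold much collagen and other matrix, and plasma cells, which secrete antibody, are known for an abundant endoplasmic reticulum.

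Promoter sequences are shown because they carry a known switch of this response. The endoplasmic reticulum stress element, ERSE (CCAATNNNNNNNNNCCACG), is bound by NF-Y at its CCAAT end and by Atf6 or Xbp1 at its CCACG end. A second form, ERSE-II (ATTGG and CCACG with 1 base between them), was described in the Herpud1 promoter. RefSeq promoters of assembly GRCr8 were matched by symbol for 9 of the 10 genes, and the 250 bases before the annotated start were searched on both strands. The lines below run 5′ to 3′ on the gene's strand, with ERSE or ERSE-II matches in capitals and, in Herpud1, also a match to the C/EBP-ATF site TGATGNAA, read on the opposite strand.
Hspa5: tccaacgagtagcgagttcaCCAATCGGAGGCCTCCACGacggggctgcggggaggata
Hsp90b1: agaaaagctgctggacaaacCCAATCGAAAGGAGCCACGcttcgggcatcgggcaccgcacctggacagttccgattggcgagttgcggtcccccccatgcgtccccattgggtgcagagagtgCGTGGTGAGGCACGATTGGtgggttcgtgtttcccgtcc
Dnajc3: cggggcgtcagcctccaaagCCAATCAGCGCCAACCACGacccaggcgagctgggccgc
Calr: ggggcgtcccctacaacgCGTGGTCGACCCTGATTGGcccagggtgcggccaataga
Canx: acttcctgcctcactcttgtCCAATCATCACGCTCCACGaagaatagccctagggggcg
Herpud1: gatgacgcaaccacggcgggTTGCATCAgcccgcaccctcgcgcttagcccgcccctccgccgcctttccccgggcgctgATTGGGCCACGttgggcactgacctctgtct

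In GRCr8 these stretches lie at chr3:38452953-38453011 (+) for Hspa5, chr7:23012327-23012489 (−) for Hsp90b1 and chr15:102432514-102432572 (+) for Dnajc3. Those of Calr, Canx and Herpud1 lie at chr19:40213117-40213173 (+), chr10:35158049-35158107 (−) and chr19:10614801-10614911 (−). Counted from the annotated start, the Hspa5 match covers bases −43 to −25, the closest to the start among the members. Hsp90b1 has an ERSE on its own strand at −176 to −158 and another on the opposite strand at −72 to −54. The match is at −133 to −115 in Dnajc3, at −232 to −214 on the opposite strand in Calr and at −230 to −212 in Canx, while the ERSE-II of Herpud1 is at −124 to −114.

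ERSE matches occurred in 22 of 33469 promoters of the same length (0.0657%), and 5 of the 9 members' promoters are among them. ERSE-II matches occurred in 14 (0.0418%). The element was defined on promoters of genes of this kind, so this count is a description and no independent evidence. The Xbp1 site was searched only as TGACGTGG, which was found in 174 promoters (0.52%) and in none of the 9 members. Sites differing from it in a single base were not counted, among them TGACGTGA in the Hspa5 and TGACGTAG in the Dnajb9 promoter. TGATGNAA was found in 1139 promoters (3.4%), among the members only in Herpud1. The half-sites were common, with CCAAT in 34% and CCACG in 27.2% of all promoters, and an ERSE match holds both. All 9 members held CCAAT and 8 of them CCACG, the exception being Pdia4.

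The promoters of Sdf2l1 and Dnajb9 held the half-sites without an ERSE or ERSE-II match, and they are shown because these genes gave wide differences between libraries described next. CCAAT and CCACG, on either strand, are in capitals. The stretches lie at chr11:97376628-97376877 (+) for Sdf2l1 and chr6:67002052-67002301 (−) for Dnajb9.
Sdf2l1: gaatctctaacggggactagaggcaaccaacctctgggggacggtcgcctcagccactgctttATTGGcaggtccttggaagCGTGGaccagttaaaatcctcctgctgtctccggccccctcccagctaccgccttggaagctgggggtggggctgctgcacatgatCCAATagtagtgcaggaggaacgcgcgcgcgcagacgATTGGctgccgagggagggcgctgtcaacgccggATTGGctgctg
Dnajb9: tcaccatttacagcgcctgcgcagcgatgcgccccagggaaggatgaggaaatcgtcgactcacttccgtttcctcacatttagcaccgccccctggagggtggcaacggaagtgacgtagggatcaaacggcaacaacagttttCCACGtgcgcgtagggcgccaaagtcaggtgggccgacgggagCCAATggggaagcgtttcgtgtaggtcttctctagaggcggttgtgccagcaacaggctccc

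Total counts ran from 10388231 to 15420546 per library, and the 10 genes together took 0.232% to 0.486% of them. Every library held smooth muscle and endothelial markers. Some libraries stood apart. Pulmonary replicate 4 held 1500 CPM (counts scaled to a common library total) summed over 8 T and B lymphocyte markers, against 3.93 to 12.9 CPM in the other 8 libraries, and 767 CPM of 7 lung epithelium markers. Pulmonary replicate 2 held 22026 CPM of 8 cardiac muscle markers, against 1083 and 1916 CPM in pulmonary libraries 1 and 4 and 33.3 to 110.0 CPM in the mesenteric libraries. Most of the sum in pulmonary replicate 1 was Actc1, at 1022 CPM, while Myh6 was at 2.65 CPM there and 465 CPM in pulmonary replicate 4. In bulk tissue, fewer cells of a type and less RNA per cell cannot be told apart.

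Libraries of the same group differed in these genes, and 2 of the 9 libraries held the highest value of 9 of the 10 genes. High-sucrose replicate 3 held the highest value of all 9 libraries for Hspa5, Hsp90b1, Dnajb9, Pdia4 and Canx. Pulmonary replicate 4 was the highest for Dnajc3, Pdia6, Sdf2l1 and Herpud1, and high-sucrose replicate 1 for Calr. High-sucrose replicate 2 was the lowest for 5 of the 10. Over 10427 genes with an average log2 CPM of at least 3, high-sucrose replicate 3 was highest for 9.64%, pulmonary replicate 4 for 26.3%, and high-sucrose replicate 2 lowest for 9.59%. With plain library totals in place of TMM-scaled ones, which correct for differences in composition, pulmonary replicate 4 became the highest for Pdia4.

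**Figure D1:**
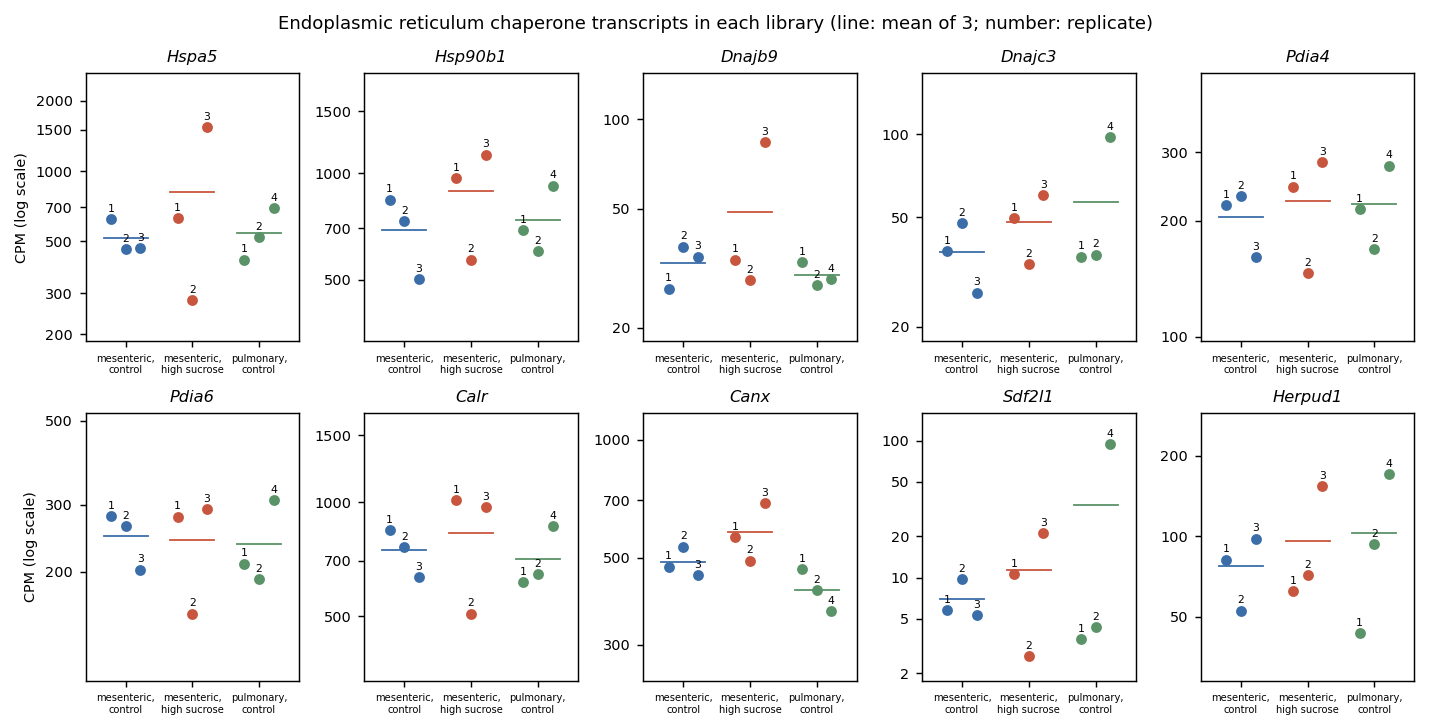
Level of each of the 10 genes in each library, in CPM on TMM-scaled totals (vertical log axis, a scale per gene) against the group. Points are libraries with their replicate number, lines are means of 3. Hspa5 in high-sucrose replicate 3 (1544 CPM) and Sdf2l1 in pulmonary replicate 4 (94.5 CPM) are the highest of their genes.

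Hspa5, the main Hsp70 chaperone of the compartment, was at 624, 463 and 467 CPM in mesenteric control replicates 1, 2 and 3. It was at 629, 280.1 and 1544 CPM in high-sucrose libraries 1, 2 and 3. Pulmonary libraries 1, 2 and 4 held 417, 522 and 696 CPM. The high-sucrose group thus held both the lowest and the highest library of all 9, and its range covered those of the other groups. Its highest library was 5.51 times its lowest, against 1.35 times among the controls and 1.67 times in pulmonary artery.

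Hsp90b1, which folds a narrower set of secreted and surface proteins, was at 842, 733 and 502 CPM in control, 969, 569.8 and 1130.4 CPM in high-sucrose and 690.1, 601 and 924 CPM in pulmonary artery. High-sucrose libraries 1 and 3 lay above all controls, and replicate 2 within them.

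Among the partners of Hspa5, Dnajb9, a DnaJ protein that directs Hspa5 to its clients and represses Ern1, was at 27.0, 37.3 and 34.6 CPM in control. It was at 33.8, 28.9 and 83.8 CPM in high-sucrose libraries 1, 2 and 3 and at 33.2, 27.8 and 29.0 CPM in pulmonary artery. High-sucrose replicate 3 stood alone, and the other 8 libraries lay between 27.0 and 37.3 CPM.

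Dnajc3, a DnaJ protein also known as an inhibitor of eIF2alpha kinases, was at 37.7, 47.6 and 26.6 CPM in control and 49.6, 33.9 and 60.0 CPM in high-sucrose artery. In pulmonary libraries 1, 2 and 4 it was at 35.9, 36.6 and 97.7 CPM. Here pulmonary replicate 4 stood highest, and the remaining pulmonary libraries lay within the controls.

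Sdf2l1, which keeps Hspa5 clients from aggregating together with a DnaJ protein, had 28 to 1464 counts per library. It was at 5.79, 9.81 and 5.32 CPM in control, 10.6, 2.66 and 21.1 CPM in high-sucrose and 3.56, 4.37 and 94.5 CPM in pulmonary artery. The highest pulmonary library was 26.5 times the lowest, the widest range of any member in any group.

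Herpud1, a membrane protein of the degradation complex, was at 81.8, 52.8 and 98.1 CPM in control. High-sucrose libraries 1, 2 and 3 held 62.5, 71.7 and 154 CPM, and pulmonary libraries 1, 2 and 4 held 43.3, 93.3 and 171 CPM. High-sucrose replicate 3 and pulmonary replicate 4 were the libraries above the control range.

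The disulfide isomerases and lectin chaperones varied less than Hspa5 and Sdf2l1 over the 9 libraries. Pdia4 was at 161 to 232 CPM in control, 146 to 283 CPM in high-sucrose and 169 to 277 CPM in pulmonary artery. Pdia6 was at 203 to 280.1, 155 to 293 and 191 to 309 CPM, and Calr at 633 to 844, 508 to 1013 and 617 to 864 CPM. All 3 had their lowest value of the 9 libraries in high-sucrose replicate 2.

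Canx, the membrane-bound lectin, had the smallest spread over the 9 libraries (root mean square deviation from its mean log2 CPM of 0.25, against 0.63 for Hspa5 and 1.47 for Sdf2l1). It was at 474, 534 and 451 CPM in control, 563, 491 and 689 CPM in high-sucrose and 467, 413 and 365 CPM in pulmonary artery. Its lowest library was pulmonary replicate 4, where 8 other members lay above the control range. Canx was also the only member with a pair of groups that did not overlap, high-sucrose mesenteric above pulmonary control. Over the same 10427 genes, these groups did not overlap for 9.21% in that direction and 6.15% in the other. The pair differs in both artery and drink of the dam and was not tested.

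By group means the order was high-sucrose, pulmonary, control for Hspa5, Hsp90b1 and Pdia4, and pulmonary, high-sucrose, control for Dnajc3, Sdf2l1 and Herpud1. It was high-sucrose, control, pulmonary for Dnajb9, Calr and Canx, and control, high-sucrose, pulmonary for Pdia6. Neighbours in these orders overlapped for all 10 genes.

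Set against the mean log2 CPM of the 3 controls, high-sucrose replicate 3 was above for every member, by 1.63 for Sdf2l1, 1.59 for Hspa5, 1.35 for Dnajb9, 1.04 for Herpud1 and 0.25 (the least) for Pdia6. High-sucrose replicate 2 was below for 9 of 10, at −1.29 for Sdf2l1 and −0.87 for Hspa5. The mean over the 10 genes was 0.28, −0.44 and 0.87 in high-sucrose libraries 1, 2 and 3, and −0.24, −0.17 and 0.77 in pulmonary libraries 1, 2 and 4. In high-sucrose libraries 1, 2 and 3 the members above the control range numbered 7, 0 and 10 (8, 0 and 9 with plain totals). Those below it numbered 0, 5 and 0. The share of all genes outside the control range was not computed for the high-sucrose libraries, so these counts have no background. In pulmonary libraries 1, 2 and 4 the members above the control range numbered 0, 0 and 8, against 24.4%, 31.3% and 34.7% of those 10427 genes. Members below it there numbered 4, 3 and 1, against 23.6%, 30.6% and 41.6%. With plain totals the members below it numbered 2, 6 and 1, so the order of pulmonary libraries 1 and 2 depended on the scaling.

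**Figure D2:**
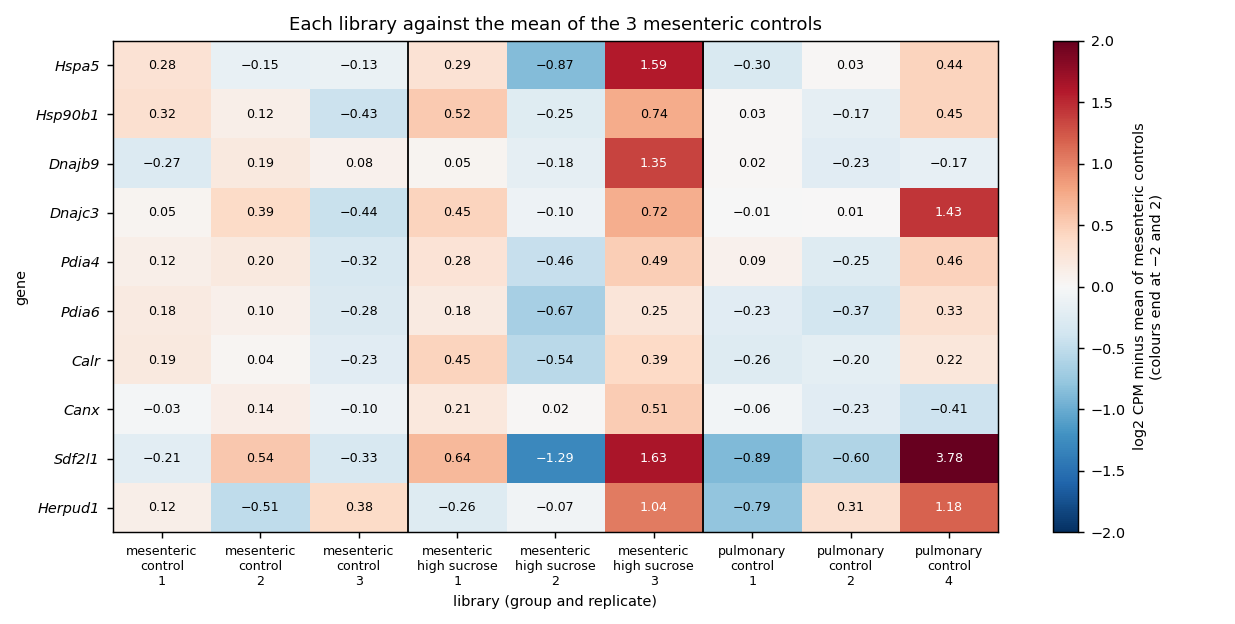
Difference of log2 CPM from the mean of the 3 mesenteric controls (colour and number) for each gene (rows) in each library (columns), with colours ending at −2 and 2. High-sucrose replicate 3 is above the controls for all 10 genes, by 0.25 to 1.63, and pulmonary replicate 4 reaches 3.78 for Sdf2l1 while Dnajb9 and Canx there are at −0.17 and −0.41.

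The spread inside the high-sucrose group was wider than the median for 9 of the 10 members when read against the same 10427 genes. The log2 range over its 3 libraries was 2.92 for Sdf2l1 and 2.46 for Hspa5, wider than in 99.3% and 98.6% of these genes. Dnajb9 (1.53) and Herpud1 (1.30) were wider than 93.5% and 90.3%. Calr, Hsp90b1, Pdia4, Pdia6 and Dnajc3, with ranges of 0.82 to 1.00, were wider than 75.3% to 82.4%. The exception was Canx, at 0.49, near the median of all genes (0.51). Some members also varied among the controls, where the median was 0.52. The ranges there were 0.89 for Herpud1, 0.86 for Sdf2l1, 0.83 for Dnajc3 and 0.75 for Hsp90b1, wider than 75.3%, 74.0%, 72.7% and 67.8% of genes, and 0.43 for Hspa5.

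In pulmonary artery the members did not share a wide spread. Sdf2l1 had a log2 range of 4.67, wider than in 97.5% of genes, and Herpud1 1.98. Dnajb9, at 0.26, was narrower than most, with 7.60% of genes below it, where the median over all genes was 0.90. Among the 6 mesenteric libraries, high-sucrose replicate 3 was the highest for 9 of 10 members (8 with plain totals), against 16.8% of all genes at this level, and replicate 2 the lowest for 5, against 19.7%. Members were counted in the same 6 libraries and are not independent of each other.

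The first comparison asked whether these genes differed in the mesenteric artery when the dam had drunk sucrose water. The group means were higher in 9 of the 10 members, with a median log2 fold change of 0.34, but none passed the test and the groups overlapped for all 10. With edgeR 0 of 10 members had an adjusted p under 0.05 and 0 an unadjusted p under 0.05, and DESeq2 called 0 (0.0214% of all genes) and limma-voom 0 (0%). Of all 13995 genes tested, 0% passed with edgeR, 1.99% had an unadjusted p under 0.05, and 50.3% were higher, with a median of 0.0024. Groups did not overlap for 0 of 10 members, against 2.66% of all genes on the higher and 3.33% on the lower side.

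Hspa5 averaged 518 ± 91.6 CPM in control and 817 ± 653 CPM in high-sucrose artery (SD, n = 3 per group), a log2 fold change of 0.67 ± 0.57 (SE; adjusted p = 1.00, edgeR). Sdf2l1 had 0.72 ± 0.67 and Dnajb9 0.58 ± 0.42, and the others lay between −0.030 (Pdia6) and 0.37 (Hsp90b1). The unadjusted p-values from edgeR ran from 0.211 for Dnajb9 to 0.918 for Pdia6. The sign of the median depended on high-sucrose replicate 3. Without high-sucrose replicate 3 the median was −0.076, with 4 members higher and 6 lower, and Hspa5 was at −0.20, Dnajb9 at −0.080, Sdf2l1 at −0.085 and Herpud1 at −0.21. Without high-sucrose replicate 2 the median was 0.54 with 10 of 10 higher, and Hspa5 (1.09) and Sdf2l1 (1.20) reached an unadjusted p of 0.0381 and 0.0324 (edgeR), with an adjusted p of 1.00.

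**Figure D3:**
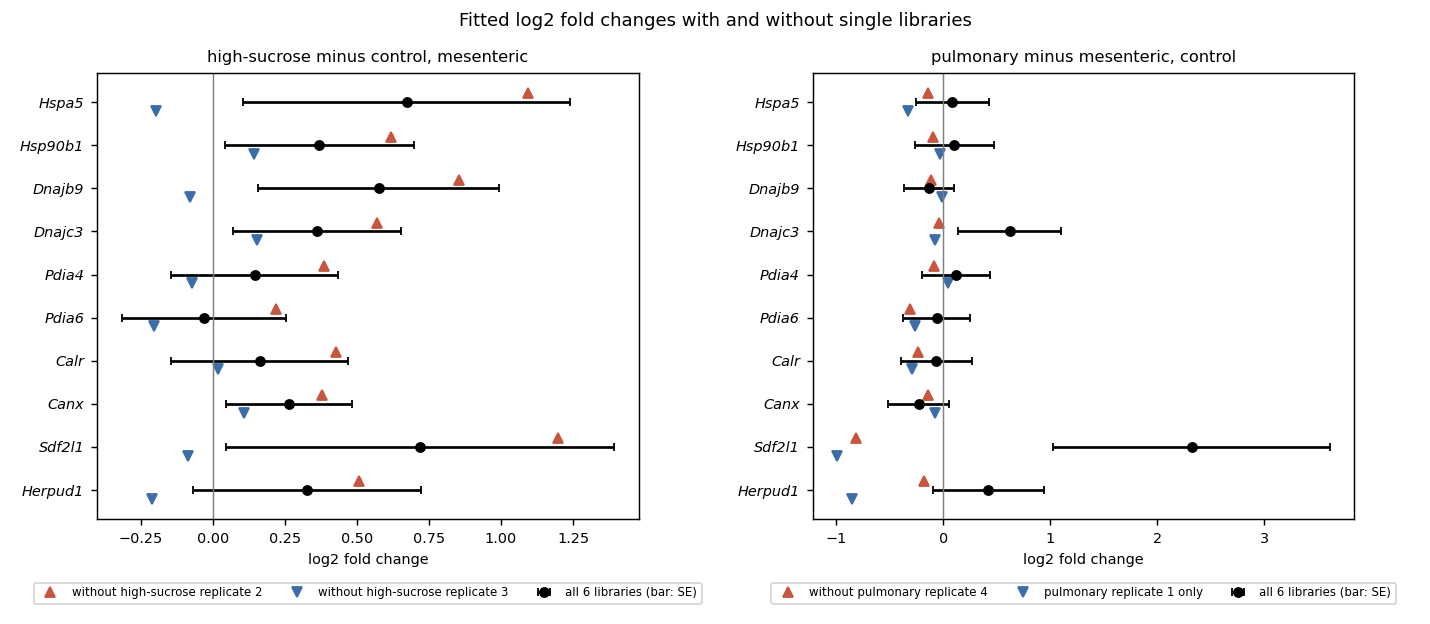
Fitted log2 fold change of each gene (horizontal axis) with all 6 libraries of a comparison (circle, bar: SE), left for high-sucrose minus control mesenteric artery and right for pulmonary minus mesenteric control, and with single libraries left out (triangles). Hspa5 moves from 0.67 to −0.20 without high-sucrose replicate 3, and Sdf2l1 from 2.32 to −0.82 without pulmonary replicate 4.

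Genes that share the compartment or the stress response were read from lists of related genes. Of 17 tested sensors and regulators of the unfolded protein response, 15 were higher and 2 lower in high-sucrose artery (median log2 fold change 0.20), and 0 passed (edgeR; 1 at an unadjusted p under 0.05; 0 by DESeq2 or limma-voom). That gene was Asns, an asparagine synthetase induced through Atf4, at 5.12, 11.6 and 4.67 CPM in control and 13.6, 15.5 and 15.7 CPM in high-sucrose artery (1.06 ± 0.39 SE, and 1.62 without control replicate 2). Unlike the chaperones, Asns was at a like level in all 3 high-sucrose libraries. Atf6, whose protein is a sensor, went against Hspa5 by library, with 49.5, 48.1 and 30.2 CPM in high-sucrose libraries 1, 2 and 3 and 26.7 to 33.3 CPM in control. Xbp1, whose own promoter is among the 22 with an ERSE match, was highest in replicate 3 (145, 119 and 233 CPM in high-sucrose artery, 121 to 202 CPM in control).

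The other folding factors of the lumen did not lean one way, with 11 of 23 higher and 12 lower (median −0.0027), 0 past the threshold with edgeR, DESeq2 or limma-voom and 2 at an unadjusted p under 0.05. Those were Uggt1, the sensor that returns unfolded glycoproteins to Calr and Canx, at 17.9 ± 0.75 CPM in control and 25.6 ± 2.50 CPM in high-sucrose artery (0.52 ± 0.17), and Sil1, a nucleotide exchange factor of Hspa5, at 27.5 ± 6.74 and 17.9 ± 0.41 CPM (−0.61 ± 0.21). Groups did not overlap for 4 of the 23, Uggt1 on the higher side and Sil1, Fkbp2, a prolyl isomerase (−0.53, or −0.32 without high-sucrose replicate 2), and Dnajc10, a disulfide reductase (132 to 140.4 CPM against 151 to 167 CPM in control), on the lower. Of all genes tested, 2.66% did not overlap on the higher side and 3.33% on the lower. Of degradation genes 9 of 20 were higher (median −0.028), and of translocon and signal peptidase genes 5 of 14 (−0.051), with 0 past the threshold and 0 at an unadjusted p under 0.05 in either list. Those with the smallest p were Erlec1 (−0.35), Os9 (−0.32) and Derl3 (0.53) for degradation, and Sec11c (−0.29), Sec61b (−0.23) and Sec11a (−0.15) for the translocon. With single libraries left out, Erlec1 ran from −0.51 to −0.20, Os9 from −0.41 to −0.13 and Derl3 from 0.29 to 0.72, and Sec11c, Sec61b and Sec11a came to −0.077, −0.035 and −0.058 without high-sucrose replicate 2.

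Transcripts of heat shock proteins of cytosol and mitochondria, which work outside the endoplasmic reticulum, had higher group means in 13 of 13 tested genes (median log2 fold change 0.48). With edgeR 0 passed and 4 had an unadjusted p under 0.05, limma-voom called 0, and DESeq2 called Cryab (1.35, adjusted p = 0.00727) and Hspe1 (1.20, adjusted p = 0.00781). Hspd1, the chaperonin that works with Hspe1, was at 1.02. The mean of the list by library was 8.28, 8.32 and 7.73 log2 CPM in control and 9.24, 7.85 and 9.12 log2 CPM in high-sucrose libraries 1, 2 and 3. As a list mean, heat shock genes were thus higher in replicates 1 and 3 than in the controls. Single genes differed from that mean. Cryab, a small heat shock protein, was at 1054, 861 and 592 CPM and Hspe1 at 275, 181 and 179 CPM in high-sucrose libraries 1, 2 and 3, all above their controls (295 to 361 and 86.9 to 100.2 CPM). Dnajb1 (158 CPM) and Bag3 (193 CPM) in replicate 3 lay inside their control ranges.

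Cell type markers also differed between the high-sucrose libraries. The sum of 8 blood endothelium markers was 2315, 1597 and 4176 CPM in replicates 1, 2 and 3 and 1437, 3362 and 2632 CPM in control replicates 1, 2 and 3. Replicate 3 exceeded all other libraries for 4 of the 8, Cdh5 (214 CPM), Vwf (1511 CPM), Egfl7 (491 CPM) and Nos3 (479.9 CPM), while Pecam1 was highest in control replicate 3 (1064 against 957 CPM). In the same order, Hspa5 was at 629, 280.1 and 1544 CPM in high-sucrose and 624, 463 and 467 CPM in control replicates 1, 2 and 3. Smooth muscle markers summed to 21988, 26694 and 16770 CPM in high-sucrose libraries 1, 2 and 3 and ran from 10227 to 41817 CPM in control. The sum of 7 plasma cell markers was 101.6, 41.9 and 93.0 CPM in high-sucrose libraries 1, 2 and 3, where the controls had 55.4 to 125 CPM. Most of these sums was Sdc1, at 82.2 CPM in replicate 3 and 51.7 to 117 CPM in control. Irf4 was at 3.47, 10.3 and 3.53 CPM in high-sucrose libraries 1, 2 and 3, all above its controls (0.75 to 2.07 CPM). Prdm1 was at 0.39, 1.61 and 2.86 CPM in the same order, against 0.13 to 0.60 CPM in control. In replicate 3, Jchain, Mzb1 and Pou2af1 lay within their control ranges. The part of the endothelial, smooth muscle and plasma cells in the chaperone levels was not tested.

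**Figure D4:**
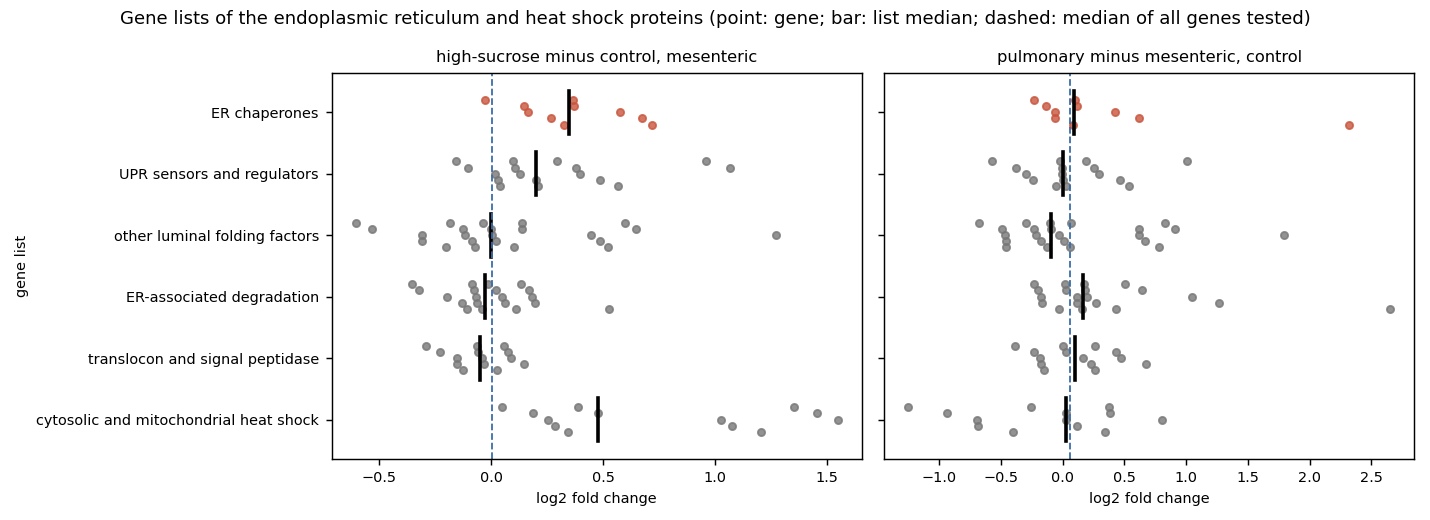
Fitted log2 fold changes (horizontal axis) of the 10 chaperone genes and of 5 related lists (points are genes), left for high-sucrose minus control mesenteric artery and right for pulmonary minus mesenteric control. Bars are list medians and the dashed line is the median of all genes tested. In the left panel the medians are 0.34 for the chaperones and 0.48 for heat shock genes, and in the right panel 0.093 and 0.027.

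The other comparison was of pulmonary with mesenteric artery in control offspring, and it shares its 3 mesenteric libraries with the first. The members did not lean one way, with 6 higher and 4 lower in pulmonary artery and a median log2 fold change of 0.093, against 0.058 over all genes, of which 54.5% were higher. With edgeR 0 of 10 passed and 0 had an unadjusted p under 0.05, against 0.014% and 8.53% of 14315 genes tested. DESeq2 called 0 members (2.93% of its genes) and limma-voom 0 (0.231%). Groups did not overlap for 0 of 10 members, against 6.41% of genes on the higher and 7.59% on the lower side.

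Sdf2l1 had the largest difference of the members, with 34.1 ± 52.3 CPM in pulmonary against 6.97 ± 2.47 CPM in mesenteric control artery (SD, n = 3 each), a log2 fold change of 2.32 ± 1.29 (SE; adjusted p = 0.642, edgeR). DESeq2 gave it no adjusted p. Only replicate 4 lay above the mesenteric libraries, and replicates 1 and 2 lay below them. Dnajc3 had 0.62 ± 0.48 and Herpud1 0.42 ± 0.52, and the others lay between −0.23 (Canx) and 0.12 (Pdia4). Without pulmonary replicate 4 all 10 members were lower (median −0.14), with Sdf2l1 at −0.82, Herpud1 at −0.18 and Dnajc3 at −0.042, and 0 passed. Without pulmonary replicate 2 the median was 0.16, and 0 passed. With replicate 1 as the only pulmonary library, 9 of 10 were lower (median −0.18), with Sdf2l1 at −0.99 and Herpud1 at −0.86, in a fit that assumes this library to vary as the mesenteric ones do.

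Pulmonary replicate 4 also stood apart in plasma cell markers. The sum of 7 such markers was 43.2, 92.0 and 2431 CPM in pulmonary libraries 1, 2 and 4 and 41.9 to 125 CPM in the mesenteric libraries, and replicate 4 was the highest for 6 of 7, the exception being Sdc1. Jchain, the joining chain of secreted antibody, was at 7.70, 35.3 and 1679 CPM, and Mzb1, an endoplasmic reticulum protein of B and plasma cells, at 0.83, 2.15 and 252 CPM in pulmonary libraries 1, 2 and 4. Tnfrsf17, a receptor of plasma cells, was at 0 in 7 of the 9 libraries and at 0.84 CPM in replicate 4. The part of these cells in the levels of Sdf2l1, Dnajc3 and Herpud1 was not tested.

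Among other genes of the compartment, some were high and some low in that library. By list, 9 of 23 luminal folding factors, 10 of 20 degradation genes and 7 of 14 translocon genes peaked in it. So did 4 of 17 sensors and regulators and 0 of 13 heat shock genes. Over the 10427 genes used above, 26.3% peaked there and 32.4% had their lowest value there. Genes at their lowest there included Tmx3 (17.9 CPM), Dnajc10 (59.4 CPM), Serpinh1 (247 CPM) and Sec62 (119 CPM). How many listed genes were lowest there was not counted. Derl3, a degradation gene, was at 4.06, 1.79 and 48.6 CPM in pulmonary libraries 1, 2 and 4, and Creld2, a luminal factor, at 20.7, 15.8 and 202 CPM. Both carry an ERSE match. Dnajb9, at 29.0 CPM, and Canx, at 365 CPM, were not above the mesenteric libraries in replicate 4. Smooth muscle markers summed to 3399 CPM there, against 20855 and 22340 CPM in pulmonary libraries 1 and 2.

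**Figure D5:**
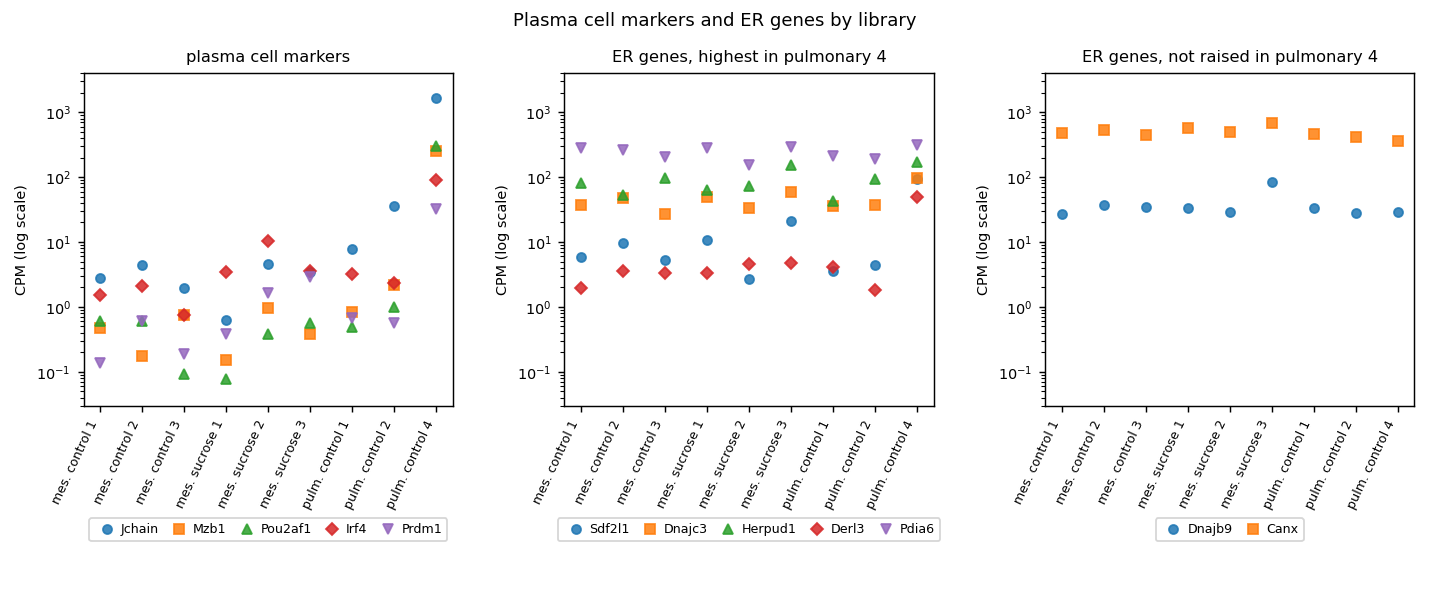
CPM (log axis) by library of 5 plasma cell markers (left), 5 genes of the endoplasmic reticulum that were highest in pulmonary replicate 4 (middle) and 2 chaperones that were not (right), chosen after their values were seen. Values of 0 are not drawn. Jchain reaches 1679 CPM and Sdf2l1 94.5 CPM in pulmonary replicate 4, while Dnajb9 is at 29.0 CPM there.

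In this comparison 0 genes of the related lists passed the threshold with edgeR, DESeq2 or limma-voom. Sensors and regulators were split, 8 of 16 higher (median −0.00085), with Ddit3, a stress-induced transcription factor, at −0.57, Asns at 1.01 and Atf6b at 0.54 (−0.44, 0.31 and 0.11 without pulmonary replicate 4). Asns was at 1.56 without mesenteric replicate 2. Luminal folding factors had 10 of 23 higher (−0.092), with Hyou1, a large Hsp70 relative, at 0.91, Uggt1 at 0.78 and Txndc5 at 0.62 (0.44, 0.37 and 0.33 without pulmonary replicate 4). Degradation genes had 15 of 20 higher (0.16), with Derl3 at 2.65, Syvn1, a ubiquitin ligase, at 1.04 and Vcp, an ATPase that extracts proteins, at 0.50. Without pulmonary replicate 4 those 3 were at −0.012, 0.31 and 0.40.

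Translocon and signal peptidase genes had 9 of 14 higher in pulmonary artery (median 0.097), with Sec61a1 at 0.47, Sec62 at −0.39 and Sec11c at 0.67 (0.22, −0.19 and −0.15 without pulmonary replicate 4). Heat shock genes had 7 of 13 higher (0.027), with Dnajb1 at −1.25 (−0.55 without mesenteric replicate 2), Bag3 at −0.94 (−0.55 without pulmonary replicate 4, −0.62 without mesenteric replicate 3 and −1.88 without pulmonary replicate 2) and Hspa4 at 0.38. At an unadjusted p under 0.05 there was 1 heat shock gene, Dnajb1, and 0 in the other lists (edgeR).

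The members resembled each other to different degrees across the 9 libraries. Likeness was the root mean square difference between log2 CPM profiles, each centred on its own mean, with smaller values for closer profiles. Pdia4 (0.20), Hsp90b1 (0.21), Pdia6 (0.22), Calr (0.23) and Dnajc3 (0.26) lay closest to the mean profile of the 10, of which each is a part. Hspa5 (0.33), Dnajb9 (0.41), Canx (0.43) and Herpud1 (0.45) lay farther, and Sdf2l1 (1.10) farthest.

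Of 9531 other genes, the 5 closest to the members' mean profile were Sfpq (0.15), Shisa5 (0.17), Cptp (0.19), Azi2 (0.19) and Rif1 (0.21), each highest in high-sucrose replicate 3 or pulmonary replicate 4. The 5 closest to Hspa5 were Cacybp (0.30), Stip1 (0.30), Snx3 (0.30), Ahsa1 (0.33) and Isyna1 (0.34), all highest in high-sucrose replicate 3. Stip1 and Ahsa1 encode co-chaperones of cytosolic Hsp90. Cacybp was at 123, 125 and 69.8 CPM in control and 143, 59.7 and 395 CPM in high-sucrose libraries 1, 2 and 3, and so had its lowest and highest libraries where Hspa5 had them.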

How the data were processed

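RNA sequencing of 9 artery libraries in 3 groups was analysed. For each library the authors deposited a table of raw whole-number counts by gene. The genome build was rn7, per the submitters' processing notes. The aligner, counting program, annotation and counted strand were not given in the sources used here, so reads that pseudogenes or overlapping genes share with a named gene cannot be told apart. Promoters came from RefSeq assembly GRCr8, another build, and were matched by symbol only. Of the 30452 features, 7092 carried only an Ensembl identifier and 235 names stood on more than 1 line. None of the 10 chaperone genes was among those names.

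Counts were tested in R 4.3.3 by edgeR 4.0.16 (quasi-likelihood test), using TMM factors, filterByExpr, robust estimation and only the 6 libraries of a comparison, and p-values were adjusted by Benjamini-Hochberg over all genes tested (threshold 0.05). All 10 members passed the filter in both comparisons. Levels are CPM on totals scaled by TMM over 9 libraries, and log2 CPM used a prior count of 2. Alternatives were median-ratio factors, DESeq2 1.42.0, limma-voom (limma 3.58.1) with quality weights, no filter, the replicate number as a block, 1 fit of all 9 libraries, each library left out, and a stricter filter (at least 10 counts throughout a group, mean CPM of at least 1). Pulmonary replicate 1 as the only pulmonary library was added after seeing the data. The tests were tried on simulated counts.

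Total counts, 10388231 to 15420546 per library, set the precision, and counting error was small beside the spread between libraries (chi-square per degree of freedom of 45.7 to 332 within groups). The labels do not tie samples to separate animals, so p-values measure only the spread among these samples, possibly a technical one.

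The 10 members, the gene lists and the marker lists were chosen with earlier results of these data known, so counts over them are descriptions. The rule named all members, every gene of a related list past the threshold or otherwise the 3 with the smallest p, and the 5 genes closest in profile among those with an average log2 CPM of at least 3. Xbp1, Creld2 and Derl3 were added for their promoter match, and the libraries and markers that stood apart after their values were seen. Of 95 genes named on the related lists, 88 were found on 1 line. Of 78 markers, 75 were.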

Additional observations from a re-analysis of the deposited data

How the results depend on the processing

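In both comparisons 0 of the 10 members passed under every setting run, with adjusted p-values from 0.874 to 1.00 between high-sucrose and control artery and from 0.403 to 1.00 between pulmonary and mesenteric artery. Over all alternatives, the direction of a member's log2 fold change reversed in 11 of 130 refits in the first comparison and 27 of 140 in the second. Groups of 3 and the spread of single libraries limit what can be told apart here, more than depth does. Whether the numbers in the sample names pair the samples is not stated in the labels. Between high-sucrose and control artery, correlations of deviations across 10427 genes were 0.21, −0.35 and 0.09 for numbers 1, 2 and 3. Those between different numbers ran from −0.53 to 0.39, so the values cannot tell whether samples were paired.

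With single libraries left out, the median of the members ran from −0.076 to 0.54 in the first comparison. There Hspa5 ran from −0.20 to 1.09, Dnajb9 from −0.080 to 0.85, Pdia4 from −0.072 to 0.39, Pdia6 from −0.21 to 0.22, Sdf2l1 from −0.085 to 1.20 and Herpud1 from −0.21 to 0.57. The lowest value of each of these 6 came without high-sucrose replicate 3. Calr ran from 0.014 (without high-sucrose replicate 1) to 0.43, Hsp90b1 from 0.14 to 0.62, Dnajc3 from 0.15 to 0.59 and Canx from 0.11 to 0.38. In the second comparison the median ran from −0.14 to 0.18, with the lowest value without pulmonary replicate 4. Hspa5 ran from −0.14 to 0.24, Hsp90b1 from −0.10 to 0.24, Dnajc3 from −0.042 to 0.85, Pdia4 from −0.092 to 0.27, Pdia6 from −0.31 to 0.061, Calr from −0.24 to 0.025, Sdf2l1 from −0.82 to 2.83, Herpud1 from −0.18 to 0.78, Derl3 from −0.012 to 3.17 and Sec11c from −0.15 to 0.97.

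With limma-voom and quality weights, Pdia6 was at 0.0098 and Herpud1 at −0.017 in the first comparison. In the second its median was −0.12, with Hspa5 at −0.11, Sdf2l1 at −0.29, Herpud1 at −0.28 and Sec11c at −0.042. With the replicate block the first comparison had a median of 0.29. In the second the block left pulmonary replicate 4 and mesenteric replicate 3 without a partner, and the median was −0.25, with Hspa5 at −0.22, Hsp90b1 at −0.30, Dnajc3 at −0.24, Pdia4 at −0.26, Sdf2l1 at −0.95, Herpud1 at −0.063 and Sec11c at −0.17. When replicate 1 was the only pulmonary library, the median was −0.18, with Hspa5 at −0.33, Hsp90b1 at −0.028, Dnajc3 at −0.078, Sdf2l1 at −0.99, Herpud1 at −0.86, Hyou1 at −0.058 and Sec11c at −0.032. The cause of the changes with limma-voom was not tested. Over all genes, the number past the threshold in the second comparison was 2 with edgeR, 408 with DESeq2, 33 with limma-voom and 22 without pulmonary replicate 4.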

Other observations

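Outside the 10 chaperones, 16 genes had an ERSE match in their promoter. Of these, 12 were found in the files and 10 were tested between high-sucrose and control mesenteric artery. By log2 fold change 8 of those 10 were higher, against 50.3% of all genes, and 0 passed with edgeR. Zfand2a, a zinc finger gene induced by arsenite and heat, was at 0.85, Creld2 at 0.60, Derl3 at 0.53, Ppm1l, a phosphatase, at 0.31 and Xbp1 at 0.11. Ero1b, an oxidase of the disulfide isomerases, was at −0.08 and Ankmy2 at −0.18. Of the 9 with an average log2 CPM of at least 3, 4 were highest of the mesenteric libraries in high-sucrose replicate 3, and 5 were not. Over all genes at this level the share was 16.8%. The 4 were Creld2, Derl3, Ero1b and Xbp1. Derl3 reached the level only through pulmonary replicate 4 (48.6 CPM). It was at 1.95 to 4.68 CPM in the mesenteric libraries, with 49 counts in both high-sucrose replicate 2 and replicate 3.

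Among genes with an ERSE-II match, Hyou1 was at 81.4, 53.7 and 54.6 CPM in mesenteric control replicates 1, 2 and 3. It was at 70.9, 42.5 and 150.1 CPM in high-sucrose libraries 1, 2 and 3 and at 61.7, 110.0 and 181 CPM in pulmonary libraries 1, 2 and 4. Hyou1 thus had its lowest library where Hspa5 had it, and its highest in pulmonary replicate 4. Nucb1, a calcium-binding protein of the Golgi, was at 0.07 between high-sucrose and control artery, and Prkcz, a protein kinase C, at 0.31.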
